A study of Mus musculus with 50 samples.

Results

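The genes described here build and supply the primary cilium: intraflagellar transport (IFT) trains, the motors that pull them, the BBSome cargo coat and the transition zone at the base of the cilium. They were chosen by symbol, as every gene of the count table named Ift, Bbs, Tctn, B9d or Nphp with a digit, every Dync2 gene, and Kif3a, Kif3b, Kifap3, Mks1, Cc2d2a, Ttc21b, Wdr19 and Wdr35. That gave 40 of 16614 genes, and the set was picked because several Ift genes were already known to be lower in the knockout. The values of these 40 genes in knockout against floxed oocytes are therefore a description, with no test.

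Single germinal vesicle oocytes, which are fully grown and arrested in meiotic prophase, were sequenced from mice labelled floxed (F/F-) and from mice labelled cKO-Zfp36l2, a conditional knockout of the RNA-binding protein ZFP36L2. There were 26 floxed oocytes from 4 mice (5, 7, 7 and 7 oocytes) and 24 knockout oocytes from 4 mice (1, 7, 8 and 8 oocytes). All mice were 5-week-old females injected with 10 IU of the gonadotrophin PMSG to make follicles grow, and were killed 46 h later. Oocytes of both groups were collected in medium with 5 µM milrinone, which keeps them in arrest, and were stripped of granulosa cells and zona pellucida. Which Cre line deletes the gene, and in which cells, is not stated in the labels. Mice were the replicates, and levels below are CPM (counts of the summed oocytes of a mouse, scaled to its total), listed for floxed mice 1 to 4 and then knockout mice 1 to 4. Knockout mouse 1 rests on a single oocyte.

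A primary cilium is a sensory antenna that grows from a centriole docked at the cell surface. IFT-B complexes carry cargo out to the tip on kinesin-2, and IFT-A complexes return on dynein-2. The transition zone, made of the MKS and NPHP modules, gates what enters, and mammalian Hedgehog signalling passes through the cilium. Mouse oocytes lose their centrioles while they grow and store much of their mRNA for later use.

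Total counts were 1746007 to 6120317 per floxed oocyte (median 4761241) and 4332108 to 6233840 per knockout oocyte (median 5211210). Summed per mouse they were 19967822 to 38341024 in floxed and 4332108 to 44498770 in knockout mice. The targeted gene Zfp36l2 had 3.51, 1.96, 4.17 and 3.44 CPM in floxed mice and 2.77, 1.61, 2.56 and 1.06 CPM in knockout mice, which overlapped (adjusted p = 0.208, edgeR quasi-likelihood test). The labels do not say which part of the gene is deleted, so a count over the whole gene does not check the genotype labels. Oocyte markers summed to 4411 to 5389 CPM in floxed and 4407 to 4909 CPM in knockout mice. Of these 10 markers 1 was called higher, Figla (1.63-fold). Cumulus and granulosa markers, 13 of 16 in the table, summed to 159 to 235 CPM and 161 to 277 CPM, with Amh, Ptx3 and Tnfaip6 not in the table and 1 called lower, Cyp11a1. Endothelial markers, 3 of 4 in the table, summed to 114 to 217 CPM in floxed and 38.4 to 55.4 CPM in knockout mice, and Pecam1 and Kdr were called lower. Theca and stroma markers, 3 of 7 in the table, summed to at most 5.21 CPM (floxed) and 6.33 CPM (knockout). The blood marker in the table, 1 of 6, reached at most 11.6 and 6.09 CPM. The part of other cells in the results below was not tested.

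Promoter sequence describes these genes apart from the count contrast. Ciliary genes are known targets of RFX transcription factors, which bind the X-box, and the RefSeq promoters (GRCm38.p6, 250 bases before to 50 bases after the start) were searched on both strands. Of the 40 genes, 34 had a promoter sequence, and Ift80, Ift81, Ift122 and Dync2li1 were among those without. The palindromic X-box, which is GTTNCC and its reverse complement GGNAAC joined by NN, was found in 3 of 34 (8.82%), against 73 of 11319 promoters of all genes tested (0.645%). These 3 are shown because they hold the whole motif, which is in capitals within 30 bases on the gene's own strand.
Mks1, chr11:87853183-87853212, plus strand: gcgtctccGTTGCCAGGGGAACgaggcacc
Bbs7, chr3:36613489-36613518, minus strand: gcgccccgGTTGCCTTGGAAACcggccagc
Tctn1, chr5:122264411-122264440, minus strand: gcgctaggctgtgactGTTGCCCGGGCAAC

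The shorter core GTTGCC, which can overlap the longer motif, was found in 18 of 34 (52.9%), against 1685 of 11319 (14.9%). It was in 5 of 11 promoters of the genes called lower in the knockout, 3 of 3 called higher and 10 of 20 not called. For either motif, a gene with several promoters counted when any of them matched. Nphp4 has 3 promoters, and its window lies downstream of the gene's annotated start (chr4:152476706). Matches of the called genes other than Mks1 are shown so that genes of opposite direction can be compared, with the core, or its reverse complement GGCAAC, in capitals.
Nphp4 (lower), chr4:152478131-152478160, plus strand: tggtgcatcccgGTTGCCagctgatgttgg
Tctn2 (lower), chr5:124598750-124598779, plus strand: cattgattggtgGTTGCCatggctgcaggc
Ift140 (lower), chr17:25015965-25015994, plus strand: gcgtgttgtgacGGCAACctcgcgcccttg
B9d1 (lower), chr11:61505152-61505181, plus strand: cgagagcctcctGGCAACagcgcgcggcct
Tctn3 (higher), chr19:40612354-40612383, minus strand: aggctcccagcgGTTGCCaggtaacgggaa
Ift27 (higher), chr15:78174073-78174102, minus strand: gggttgatgatgGTTGCCaggagcctgttt
Kif3a (higher), chr11:53567259-53567288, plus strand: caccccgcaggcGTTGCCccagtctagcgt
A match describes letters in this window and is not evidence of binding.

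ZFP36 proteins bind AU-rich sequence in 3′ untranslated regions (UTRs) and promote decay of the mRNA, so their core motif TATTTAT was counted on the sense strand of the GENCODE M21 3′ UTRs (mm10). It was present in 5 of 39 of the cilium genes (12.8%), Mks1, Kif3b, Tctn1, Ift122 and Ift43, against 3829 of 13803 genes tested (27.7%). Their 3′ UTRs were shorter, with a median of 478 bases against 1003. Within UTRs of 200 to 1000 bases the share was 2 of 24 (8.33%) against 720 of 5203 (13.8%). Among the called genes counted here, which leave out Tctn2, only Mks1 held it, and its site is shown with the motif in capitals.
Mks1, chr11:87863778-87863803, plus strand: atataaaaagTATTTATattgactga

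Nearly every gene of the cilium set had counts in the libraries of floxed oocytes. Between 34 and 40 of the 40 genes had a count in each floxed oocyte (median 39), and 36 to 40 in each knockout oocyte (median 38). With each oocyte thinned to 3000000 counts, which left out 3 shallower floxed oocytes, 33 genes were counted in all 23 floxed oocytes and 34 in all 24 knockout oocytes. Unthinned, these were 32 and 35. On the scale of CPM per kilobase of transcript, the set had a floxed median of 12.3, against 8.58 over 14968 genes tested, and 25 of 40 lay above that median. Ift43, an IFT-A subunit, was the highest at 149.5 CPM per kb, next to Bbs4, a BBSome subunit, at 149.0. B9d1, a transition-zone protein of the MKS module, followed at 96.8. Bbs1, another BBSome subunit, was the lowest at 0.0795. By role, the median was 28.4 in IFT-B, 23.1 in the BBSome, 9.59 in the MKS module, 8.50 in kinesin-2, 8.49 in dynein-2, 8.16 in IFT-A and 5.97 in the BBS chaperonins. Levels within IFT-A, from 0.316 to 149.5 CPM per kb, and within the BBSome spanned the widest ranges.

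**Figure D1:**
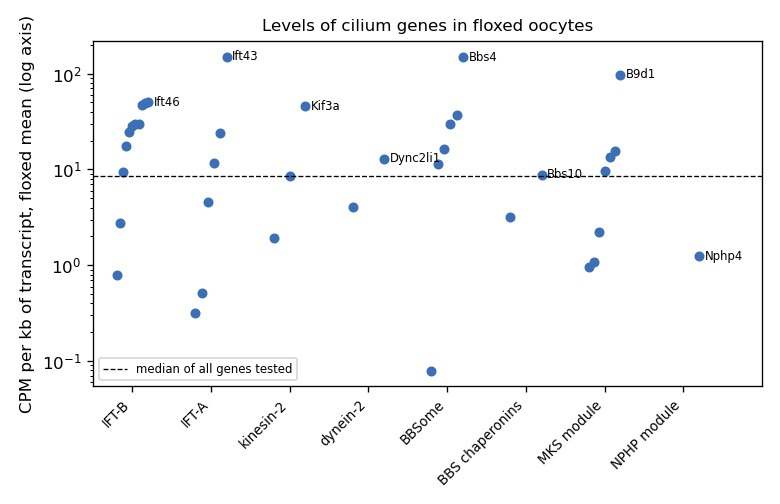
Level of 38 of the 40 cilium genes in floxed oocytes, as mean CPM of 4 mice per kilobase of transcript on a log axis, grouped by role. The dashed line is the median of all genes tested (8.58), and 24 of 38 points lie above it.

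All 40 genes passed the filter on low counts. Summed over the 40, the level was 2131 to 2414 CPM in floxed mice and 1927 to 2083 CPM in knockout mice, and the groups did not overlap. By an adjusted p under 0.05 in the fit over all genes, 12 of 40 were called lower in the knockout (30%), where 13.2% of all 15029 genes tested were called lower. Called higher were 3 of 40 (7.5%), where 14.4% of all genes tested were called higher. In either direction 27.6% of all genes tested were called, and 15 of the 40. All 4 knockout mice lay below all 4 floxed mice for 13 of the 40 (15.0% over all genes) and above them for 5 (16.0% over all genes). The median log2 fold change, knockout minus floxed, was -0.35 over the 40 and -0.01 over all genes tested. Because the set was picked for this contrast, nothing is read from these counts.

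**Figure D2:**
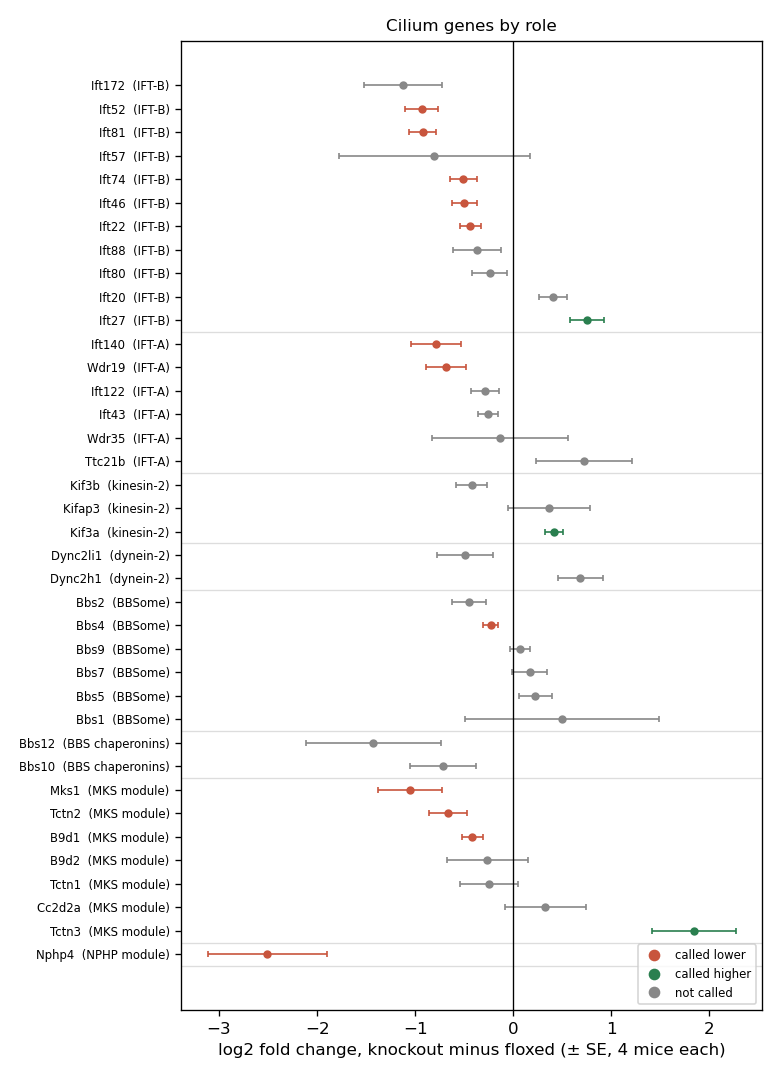
Log2 fold change of 38 of the 40 genes, knockout minus floxed, with its standard error from 4 mice each, grouped by role and coloured by call. Genes called lower number 5 of 11 in IFT-B, 3 of 7 in the MKS module, 2 of 6 in IFT-A and 1 of 6 in the BBSome. None is called lower in kinesin-2, dynein-2 or the BBS chaperonins. Kif3a, Ift27 and Tctn3, called higher, are to the right of 0. Of all genes tested, 13.2% were called lower and 14.4% higher. The set was picked for this contrast, so nothing is read from these counts.

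IFT-B, the outbound train, held 5 of the 12 genes called lower: Ift22, Ift46, Ift52, Ift74 and Ift81. Ift52 and Ift46 are core subunits that hold the complex together. Ift52 had 93.5, 113.8, 121.4 and 113.7 CPM in floxed and 40.9, 61.7, 66.8 and 67.4 CPM in knockout mice. Every knockout mouse was below every floxed mouse, a 1.91-fold lower level (log2 fold change -0.94, SE 0.17). Ift46 had 213.6, 226.7, 196.6 and 205.3 CPM in floxed and 192.7, 139.3, 131.3 and 150.6 CPM in knockout mice, a 1.41-fold lower level (log2 fold change -0.50, SE 0.13). Its groups were separated only by the small step between floxed mouse 3 and knockout mouse 1.

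Ift81 and Ift74 form the pair that binds tubulin for transport into the cilium, and both were lower. Ift81 had 108.9, 134.3, 162.4 and 150.4 CPM in floxed mice and 82.6, 70.2, 73.6 and 75.7 CPM in knockout mice, a 1.90-fold lower level (log2 fold change -0.92, SE 0.14). Ift74 had 52.6, 64.9, 67.4 and 67.0 CPM against 49.6, 43.9, 43.2 and 45.6 CPM, 1.42-fold lower (log2 fold change -0.51, SE 0.14). For both genes floxed mouse 1 was the lowest floxed mouse and nearest to the knockout. Ift22, a Rab-like small GTPase of IFT-B, had 85.9, 85.0, 87.9 and 90.3 CPM in floxed and 68.8, 58.6, 72.6 and 65.2 CPM in knockout mice. That was 1.35-fold lower (log2 fold change -0.44, SE 0.11), with tight floxed values and no overlap.

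Ift27, the other Rab-like GTPase of IFT-B, which links the train to BBSome exit from the cilium, went the other way. It had 18.5, 18.1, 18.4 and 15.3 CPM in floxed and 24.9, 29.1, 33.3 and 33.9 CPM in knockout mice, 1.68-fold higher (log2 fold change 0.75, SE 0.17). All knockout mice were above all floxed mice. Of the 5 IFT-B genes not called, Ift20, an adaptor that also resides at the Golgi, was also separated upward, with 28.6 to 38.5 CPM in floxed and 44.5 to 49.0 CPM in knockout mice. Ift172, a large peripheral subunit, was separated downward, with 11.0 to 17.5 CPM in floxed and 2.31 to 10.6 CPM in knockout mice. Ift57, Ift80 and Ift88 overlapped between groups, and their log2 fold changes were -0.81 (SE 0.97), -0.24 (SE 0.18) and -0.37 (SE 0.24). Summed, IFT-B genes had 720 to 844 CPM in floxed and 571 to 610 CPM in knockout mice.

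IFT-A, the return complex, had 2 of 6 genes called lower, Ift140 and Wdr19, both of its core. Ift140 had 15.5, 26.8, 28.0 and 31.0 CPM in floxed and 11.8, 15.1, 17.2 and 16.2 CPM in knockout mice, 1.72-fold lower (log2 fold change -0.78, SE 0.26). Wdr19 had 35.8, 63.4, 49.7 and 57.4 CPM against 37.2, 28.6, 32.8 and 33.8 CPM, 1.61-fold lower (log2 fold change -0.69, SE 0.20). Both overlapped through floxed mouse 1, which lay within the knockout range. Ift43, the highest gene of the set per length, had 120.5, 121.0, 108.1 and 118.6 CPM against 113.1, 97.2, 94.7 and 97.6 CPM and was not called (log2 fold change -0.26, SE 0.10). Of the remaining IFT-A genes, Ift122 and Wdr35 had log2 fold changes of -0.29 (SE 0.14) and -0.14 (SE 0.69), and Ttc21b 0.72 (SE 0.49).

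Of the 5 motor genes, 1 was called, Kif3a, as higher. Kif3a, a motor subunit of kinesin-2, had 132.7, 153.6, 141.5 and 151.5 CPM in floxed and 181.9, 204.9, 212.0 and 195.6 CPM in knockout mice. It was higher in every knockout mouse, by 1.33-fold (log2 fold change 0.42, SE 0.09). Kif3b, its partner motor subunit, was lower in every knockout mouse, with 40.0, 44.8, 54.0 and 52.8 CPM against 37.9, 39.5, 37.4 and 32.2 CPM, and was not called (log2 fold change -0.42, SE 0.16). The accessory subunit Kifap3 overlapped between groups (log2 fold change 0.37, SE 0.42). Dync2h1, the heavy chain of dynein-2, had 33.3, 58.7, 68.3 and 66.9 CPM in floxed and 91.9, 111.6, 83.1 and 89.3 CPM in knockout mice, separated upward by 1.61-fold but not called (log2 fold change 0.68, SE 0.23). Its light intermediate chain Dync2li1 overlapped (log2 fold change -0.49, SE 0.29).

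The BBSome, a coat that moves membrane receptors in and out of cilia had 1 of 6 genes called. Bbs4 had 342.8, 380.2, 382.0 and 395.3 CPM in floxed and 305.6, 333.5, 335.6 and 338.3 CPM in knockout mice, and was called lower at 1.17-fold (log2 fold change -0.23, SE 0.08). It shares 194 exon bases with Adpgk on the opposite strand, and the kit does not mark strand, so reads there cannot be assigned to either gene. Bbs9 had 116.1, 115.1, 142.1 and 130.6 CPM against 130.0, 140.3, 138.4 and 134.1 CPM, with overlap (log2 fold change 0.07, SE 0.10). Bbs2 was separated downward without a call (log2 fold change -0.45, SE 0.18), and Bbs1, Bbs5 and Bbs7 overlapped (0.50, 0.22 and 0.17, SE 0.99, 0.17 and 0.18). Bbs10 and Bbs12 are chaperonin-like proteins that assemble the BBSome. Bbs10 had 24.1, 22.9, 28.7 and 20.5 CPM in floxed and 6.00, 20.6, 13.6 and 19.1 CPM in knockout mice, overlapping at floxed mouse 4 and knockout mouse 2 (log2 fold change -0.72, SE 0.33). Bbs12 had 4.65 to 12.3 CPM in floxed and 0 to 4.75 CPM in knockout mice (log2 fold change -1.43, SE 0.69).

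The MKS module of the transition zone had 3 of 7 genes called lower and 1 called higher. Mks1, a B9-domain protein, had 31.7, 35.8, 31.8 and 36.2 CPM in floxed and 18.5, 14.4, 7.91 and 26.5 CPM in knockout mice, 2.08-fold lower (log2 fold change -1.05, SE 0.32). Its B9-domain partner B9d1 had 84.4, 70.1, 79.5 and 82.2 CPM against 61.9, 58.1, 65.1 and 57.8 CPM, 1.34-fold lower (log2 fold change -0.42, SE 0.11). Neither gene overlapped between groups. The tectonic proteins encoded by Tctn1, Tctn2 and Tctn3 belong to the same complex, and their genes diverged. Tctn2 had 59.4, 52.1, 50.1 and 48.6 CPM in floxed and 21.7, 35.5, 41.1 and 37.2 CPM in knockout mice, 1.58-fold lower (log2 fold change -0.66, SE 0.19). Tctn3 had 1.70, 5.35, 2.71 and 2.23 CPM against 8.08, 7.80, 12.1 and 16.2 CPM, 3.58-fold higher and the largest upward step of the 40 (log2 fold change 1.84, SE 0.43). Tctn1, which shares 1574 exon bases with Hvcn1 on the opposite strand, overlapped (log2 fold change -0.25, SE 0.29), as did B9d2 (-0.27, SE 0.41) and Cc2d2a (0.33, SE 0.41).

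In the NPHP module, Nphp4 had the largest fold decrease of the 40 genes at a low level. It had 7.21, 5.88, 7.95 and 4.03 CPM in floxed and 0, 0.818, 1.46 and 1.79 CPM in knockout mice, 5.69-fold lower (log2 fold change -2.51, SE 0.61). The 0 of knockout mouse 1 allows up to 0.693 CPM (3 counts of its total, counting error only).

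**Figure D3:**
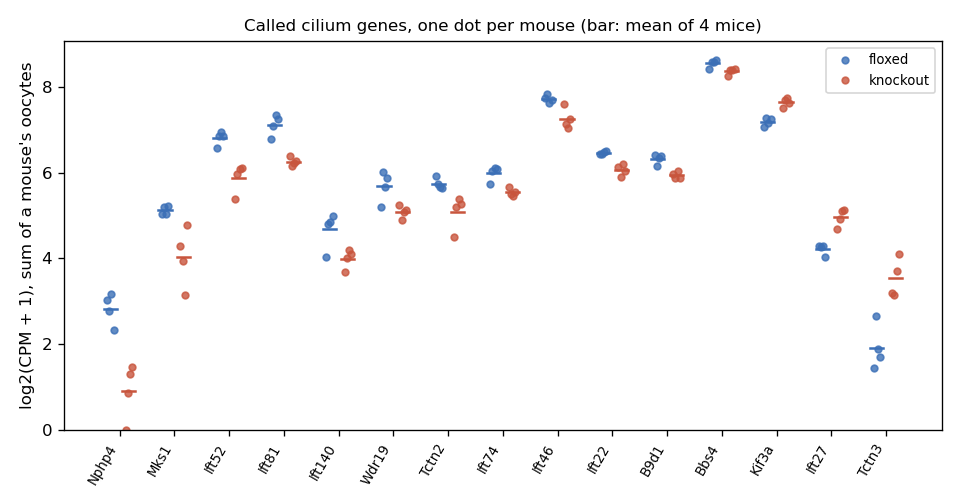
Level of the 15 called genes in each mouse, as log2(CPM + 1) of the summed oocytes, with a bar at the mean of 4 mice. Knockout dots lie below floxed dots for Nphp4 (floxed 4.03 to 7.95, knockout 0 to 1.79 CPM), and above them for Kif3a, Ift27 and Tctn3.

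These calls varied with the mice, the oocytes and the settings. Of the settings, DESeq2 called 16 lower and 5 higher, adding Bbs2, Dync2h1, Ift172, Ift20, Ift43 and Kif3b to the calls. Nphp4, Ift52, Ift81, Kif3a and Tctn3 were called under all 16 alternatives tried. The alternatives reuse the same mice and the contrast for which the set was picked, so a call that held is a description and not support. The number called lower was 20 without knockout mouse 1, the single oocyte, and 21 without mouse 1 of both genotypes. It was 5 without floxed mouse 2, 6 without floxed mouse 3 and 4 without floxed mouse 4. Bbs4, Ift140, Ift74, Mks1, Tctn2 and Wdr19 lost their call in each of these last 3 fits. Ift46 lost it without floxed mouse 2 and Ift22 and B9d1 without floxed mouse 4, while Ift27 lost its call without knockout mouse 3 or 4. Without knockout mouse 2, Bbs4, Ift140, Mks1, Tctn2 and Wdr19 were not called. Bbs4, Ift140 and Wdr19 were not called without knockout mouse 3, nor Ift140 without knockout mouse 4. Bbs4 also lost its call with upper quartile normalization, with no filter on low counts and without the 3 knockout oocytes numbered 8, and kept it in 7 of 16 alternatives. Dync2h1, in contrast, was called higher in 7 of the 16, DESeq2 and the fit without floxed mouse 1 among them, with log2 fold changes of 0.45 to 0.78 over all 16. Directions held throughout for Mks1 (-1.42 to -0.85), Ift46 (-0.67 to -0.43) and Ift27 (0.65 to 0.81). The number of all genes called also moved between fits, as given in the last section. Nothing about the cilium genes is therefore read from their counts in these fits.

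Library depth moved with some of these levels. Over the 26 floxed oocytes, centred per mouse, and for the 30 genes with a mean of at least 10 CPM, the correlation of a gene's level with its oocyte's log total ran from -0.89 (Ift43), -0.82 (Ift46) and -0.62 (Bbs4) to 0.73 (Ift74) and 0.75 (Ift80), as a description over oocytes that share mice. Ift52 and Ift81 stood at 0.61 and 0.58. Knockout oocytes had the larger median total, and the highest count of any gene in any oocyte was 8354. Among the 16 floxed and 15 knockout oocytes with 4000000 to 5500000 counts, 8 genes were called lower and 5 higher, and Bbs4, B9d1, Tctn2 and Wdr19 were no longer called. These counts were not set beside the share of all genes called in that fit, so nothing is read from them. The log2 fold changes there were -0.63 for Wdr19, -0.67 for Tctn2 and -0.17 for Bbs4, whose calls were lost, against -0.69, -0.66 and -0.23 in all oocytes. They were -0.97 for Ift52, -0.92 for Ift81, -0.43 for Ift46, -0.37 for Ift22 and -2.69 for Nphp4.

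Single oocytes showed how the mouse values arose. Ift52 ranged from 68.1 to 140.8 CPM (median 109.9) over floxed oocytes and from 34.9 to 93.5 CPM (median 63.9) over knockout oocytes. Ift81 ranged from 67.7 to 191.7 CPM (median 141.9) and from 40.4 to 99.3 CPM (median 74.6). For both genes every knockout oocyte lay under the floxed median. Oocytes of a mouse are not replicates of its genotype, and the set was picked for this contrast, so this is a description. Kif3a ranged from 102.9 to 177.1 CPM (median 147.1) in floxed and from 155.0 to 244.0 CPM (median 202.0) in knockout oocytes.

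Mks1 was spread more widely in the knockout, from 0.43 to 59.6 CPM (median 11.0), than in floxed oocytes, from 21.4 to 59.0 CPM (median 32.0). On the log2(CPM + 1) scale, the SD between the oocytes of a single mouse, as the median over mice with at least 5 oocytes, was 0.41 for Mks1 in floxed and 0.86 in knockout mice. This SD was larger in the knockout for 26 of the 40 genes and smaller for 14, with medians of 0.38 in floxed and 0.50 in knockout mice. It was larger for Dync2h1 (0.47 and 0.96), Ift140 (0.29 and 0.99) and Ift172 (0.40 and 1.09), and smaller for Cc2d2a (1.22 and 0.84), Ttc21b (1.07 and 0.74), Kifap3 (0.72 and 0.50) and Ift46 (0.15 and 0.10). These differences were not tested, and they were not set beside those of all genes. This SD can change with a gene's level, which was not matched. In mean CPM, Mks1, Ift140 and Ift172 were lower in the knockout and Cc2d2a, Ttc21b and Kifap3 higher. Dync2h1, which was higher, and Ift46, which was lower, went the other way. Knockout mouse 1, with 1 oocyte, has no SD. Low genes differed in how many oocytes held a count. Ift57, a peripheral IFT-B subunit, was counted in 22 of 26 floxed and 10 of 24 knockout oocytes, and in 20 of 23 and 9 of 24 after thinning. Nphp4 was counted in 26 of 26 and 19 of 24 oocytes, and in 23 of 23 and 17 of 24 after thinning. Tctn3 was counted in 22 of 26 floxed and 24 of 24 knockout oocytes. An oocyte without a count is not shown to lack the mRNA at this depth.

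**Figure D4:**
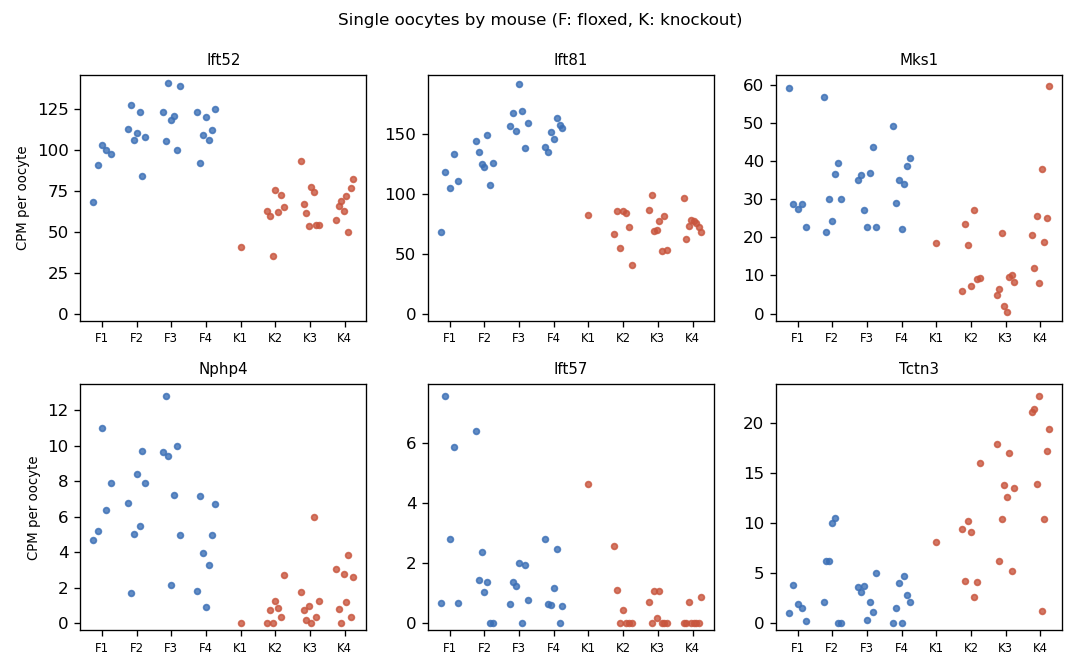
Level of 6 cilium genes in each oocyte (CPM), by mouse, with floxed mice F1 to F4 in blue and knockout mice K1 to K4 in red. For Ift52 and Ift81 every knockout oocyte lies under the floxed median, while Mks1 spreads from 0.43 to 59.6 CPM in knockout oocytes. Ift57 is at 0 in most knockout oocytes.

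Other cilium genes, outside the naming rule, were examined by list. The lists were chosen with earlier results of these data known, so they are not independent support for the set above. Over all lists, 24 of 123 tested genes fell (19.5%, against 13.2% of all genes tested) and 11 rose (8.94%, against 14.4%), with a median log2 fold change of -0.12 against -0.01. Of 12 intraflagellar transport genes under other symbols, 3 fell by the test and 9 were not called, with a list median of -0.18 (log2). Cluap1, an IFT-B subunit, fell from 77.2 ± 8.96 to 50.3 ± 3.83 CPM (mean ± SD, n = 4 mice; adjusted p = 0.00614 over all genes, edgeR). Tctex1d2, a dynein-2 light chain, fell 2.63-fold (adjusted p = 0.00700), and Kif17, the homodimeric kinesin-2, fell 1.40-fold (adjusted p = 0.00286). Among 5 BBSome partners, Lztfl1, which controls BBSome entry, fell 1.70-fold (adjusted p = 0.00120) and the other 4 were not called.

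A further list held 18 genes of the transition zone or of nephronophthisis proteins and their partners. Of these, 4 fell (22.2%, against 13.2% of all genes tested) and 1 rose (5.56%, against 14.4%). Nothing is read from the shares of lists this short. Tmem216, a membrane protein of the MKS module, fell 2.81-fold from 44.0 to 16.0 CPM (adjusted p = 0.00220). Rpgrip1l, a transition-zone scaffold, fell 1.76-fold (adjusted p = 0.0254), but lost the call without floxed mouse 2 (0.0561), floxed mouse 3 (0.0661) or floxed mouse 4 (0.0757), over a range of 0.000216 to 0.0757 in all alternatives. Anks3, an ankyrin-repeat partner of nephronophthisis proteins, rose 3.93-fold (adjusted p = 0.00127). Basal body and ciliogenesis genes fell in 4 of 17 (23.5%) and rose in 1 (5.88%), with Sclt1, a distal appendage protein, 1.90-fold lower (adjusted p = 0.00111). Cby1, a basal body protein, fell 1.56-fold (adjusted p = 0.00995). Cep19, a centriolar protein that recruits IFT, rose 1.87-fold (adjusted p = 0.0197), a call lost without floxed mouse 2 (0.0605), floxed mouse 4 (0.0628) or knockout mouse 4 (0.0539) and at matched depth (0.106, range over alternatives 0.000908 to 0.106). Centriole duplication genes fell in 4 of 16, and the other 12 were not called, with Cep135, a cartwheel protein, 1.87-fold lower (adjusted p = 0.00154). Poc1a, a centriole wall protein, fell 1.38-fold (adjusted p = 0.00545). Cep63, which works in centriole duplication, fell 1.31-fold (adjusted p = 0.0321), a call lost without floxed mouse 2 (0.0628), 3 (0.0787) or 4 (0.0718) or knockout mouse 2 (0.0596, range over alternatives 0.000134 to 0.0787). Of 12 ciliary membrane and cargo genes, 1 fell (8.33%) and 2 rose (16.7%), with Unc119b, a carrier of lipidated cargo, 4.87-fold higher (adjusted p = 0.00864). Pkd2, the polycystin-2 channel, rose 2.25-fold (adjusted p = 0.0157), a call lost without knockout mouse 3 (0.0606) and at matched depth (0.0638, range over alternatives 0.000450 to 0.0638). Pkhd1, which encodes fibrocystin, fell 1.74-fold (adjusted p = 0.0379), a call lost in 6 of 16 alternatives: without floxed mouse 2 (0.0764), 3 (0.0819) or 4 (0.104), knockout mouse 3 (0.0788) or 4 (0.0745), or the 3 oocytes numbered 8 (0.0595, range over alternatives 0.00452 to 0.104).

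Of the Hedgehog genes, 3 of 11 tested rose (27.3%, against 14.4% of all genes tested) and 8 were not called, with a list median of 0.44 (log2). Gli1, a transcription factor and a standard target of the pathway, had 0.150, 0.735, 0.704 and 0.372 CPM in floxed and 5.54, 13.5, 9.30 and 8.66 CPM in knockout mice, 18.0-fold higher (adjusted p = 0.000910). The Gli1 fold rests on few floxed counts, 60 over all 26 oocytes, against 1267 over the 24 knockout oocytes. Ptch1, on the same list, averaged 1.79 CPM (floxed) and 2.57 CPM (knockout), with overlap and no call (log2 fold change 0.44, SE 0.44). Smo was separated upward at a low level without a call (log2 fold change 1.73, SE 0.60). Activity of the pathway was not tested. Gli3, which acts mainly as a repressor, rose 2.74-fold from 64.2 to 180.6 CPM (adjusted p = 0.00750). Sufu, which restrains GLI proteins, rose 1.73-fold from 101.6 to 180.4 CPM (adjusted p = 0.00472). Gli1, Gli3 and Sufu were called under each of the 16 alternatives. These reuse the same mice, and the genes were named for their small p, so this is a description and not support.

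**Figure D5:**
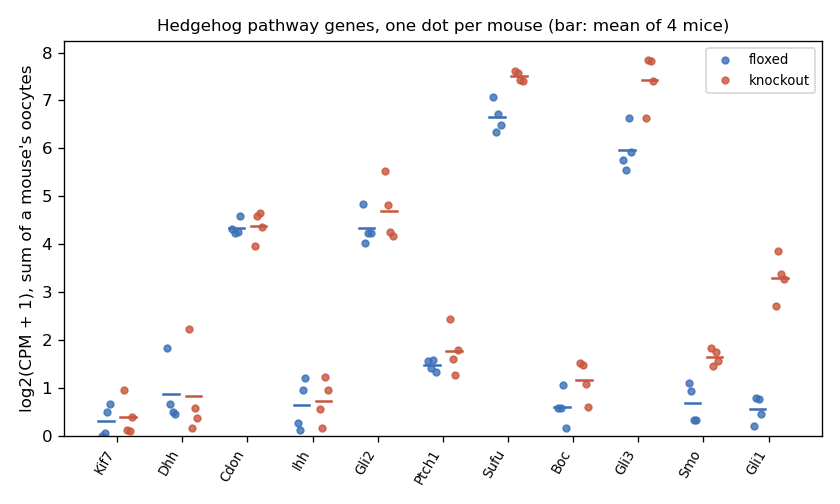
Level of the 11 tested Hedgehog genes in each mouse, as log2(CPM + 1) of the summed oocytes, with a bar at the mean of 4 mice. Gli1, Gli3 and Sufu lie higher in all 4 knockout mice.

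Among 9 tested RFX and other ciliary transcription factors, 2 fell (22.2%, against 13.2% of all genes tested). Trp73, which drives multiciliated cell fate, fell 8.16-fold from 33.0 to 4.36 CPM (adjusted p = 0.000741), and Rfx7 fell 1.61-fold (adjusted p = 0.0164), which was 0.0519 without floxed mouse 4 and 0.000247 to 0.0519 over all alternatives. Of 23 tested motile axoneme genes, which primary cilia do not need, 5 fell (21.7%, against 13.2% of all genes tested) and 4 rose (17.4%, against 14.4%). The dynein heavy chains Dnah10 and Dnah6 fell 2.12-fold and 2.78-fold (adjusted p = 0.000891 and 0.00234), and Tekt4, a tektin of the axoneme, fell 3.93-fold (adjusted p = 0.00671).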

How the data were processed

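Single-oocyte RNA-seq libraries were made with Trizol extraction and the SMARTer Ultra Low Input kit, per the labels' protocols. The kit does not record strand and has no molecular identifiers. Whether PCR copies were removed before counting is not known here. The authors deposited unnormalized whole-number counts of 50 oocytes in 1 table. STAR and mm10 come from the submitters' processing notes. The counting tool and the version of STAR were not given in the sources used here. Columns were matched to samples by header or title, and groups came from the titles.

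Counts of the oocytes of a mouse were summed, after a chi-square comparison of all 150 same-mouse oocyte pairs (5.06 to 25.7 per degree of freedom, so none was taken for a copy). Sums of 4 floxed and 4 knockout mice were fitted with edgeR 4.0.16 in R 4.3.3 (TMM, filterByExpr at a count of 10 or more, quasi-likelihood test, Benjamini-Hochberg adjustment over 15029 genes, adjusted p under 0.05). The standard error (SE) of a log2 fold change comes from its F statistic. The fit was tested on simulated data. CPM used the total count of a mouse or oocyte. Intervals and p-values cover the spread between these mice only. The alternatives were DESeq2 1.42.0, other scalings, no count filter, mouse number as a block, leaving out mice or oocytes and, chosen after seeing the data, depth-matched oocytes.

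The members and lists were chosen with earlier results of these data known. Genes given in full were the 10 called lower with the largest fold, all called higher, the 6 with the highest floxed CPM and 1 for any role left over, plus, per list, the called genes of smallest p (at most 3); others were named after their values were seen. Values of 2 of the 40 genes are not reported here. Table genes were matched to GENCODE M21 by RefSeq accession (16350) or symbol (186), and 78 were not matched.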

Additional observations from a re-analysis of the deposited data

Results flagged for a closer look

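Among the 40 cilium genes and the 24 genes named from the other lists, 128 groups of 4 mice were examined for a mouse standing far from the other 3, and 8 had one (6.25%); chance gives about 1 in 20. Of these, 6 lie in knockout mouse 1, which holds a single oocyte. There, Ift57 was at 4.62 CPM (others 0.212 to 0.584), Ift43 at 113.1 CPM (others 94.7 to 97.6), and Bbs4 at 305.6 CPM (others 333.5 to 338.3). In the same mouse Tctex1d2 was at 18.9 CPM (others 8.53 to 9.75), Rfx7 at 78.3 CPM (others 56.4 to 59.2) and Trp73 at 7.62 CPM (others 2.85 to 3.65). Ift27 was at 15.3 CPM in floxed mouse 4 (others 18.1 to 18.5), and Ift74 at 52.6 CPM in floxed mouse 1 (others 64.9 to 67.4).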

How the results depend on the processing

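The counts of called genes moved most with the mice included. Leaving out 1 mouse at a time gave 1219 to 2822 genes lower (1984 with all mice) and 1359 to 2538 higher (2164), with the lowest counts without floxed mouse 4 and knockout mouse 2. Cilium genes called lower ranged from 4 to 20 (12), those called higher from 2 to 4 (3), and their median log2 fold change from -0.49 to -0.35. In the other lists 14 to 36 fell (24) and 7 to 15 rose (11); without floxed mouse 4 these were 14 and 7, and without knockout mouse 3 the number that rose was 7. Without mouse 1 of both genotypes, 3549 genes were lower, and 21 cilium genes and 48 genes of the other lists were lower and 20 of the lists higher. DESeq2 called 5 cilium genes and 18 list genes higher. Depth-matched oocytes gave 5 and 6. The mouse numbers were not shown to pair the mice: deviations of same-numbered mice correlated at 0.32, -0.0038, 0.25 and 0.18, and numbers 1 and 3 but not 2 and 4 were closest to their own number. With the mouse number as replicate block, 17 cilium genes were called lower and 5 higher, and 20 list genes rose. The counts from DESeq2, the depth-matched oocytes and this block were not set beside the share of all genes called in the same fit. Nothing is therefore read from them. Bbs9 changed sign without floxed mouse 1 (-0.015, with 0.13 the highest of these fits, and 0.07 with all mice). Scaling moved the median of all genes to no lower than -0.02. Depth limits genes such as Bbs1, with 42 counts over all floxed oocytes.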
